A study of Mus musculus with 19 samples.

Results

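The 37 genes described here are macrophage and monocyte genes, chosen by name from the 24972 genes listed for mouse plantaris tendon, a hindlimb tendon beside the Achilles tendon. They were sorted by textbook role into 11 pan-macrophage genes that most macrophages carry, 10 genes of inflammatory monocytes and macrophages, 10 genes of resident macrophages and 6 genes of repair macrophages. The roles overlap in living cells, so each gene is reported on its own as well as within its role. RNA sequencing had been done on 19 libraries in 5 groups, and the study targeted scleraxis (Scx), a transcription factor of tendon cells. The control group held 3 libraries from Scx+ mice that received neither tamoxifen nor a growth stimulus. The other 4 groups held 4 libraries each from mice given tamoxifen and a growth stimulus, namely Scx+ and Scx- mice after 7 days and Scx+ and Scx- mice after 14 days. Alleles, Cre driver, kind of stimulus, strain, sex and age are not given in the sources used here. No unstimulated Scx- group and no tamoxifen-treated unstimulated group was analysed here, so stimulus and tamoxifen cannot be told apart in any comparison with the control. Nothing in the labels says that replicates came from different animals. The p-values therefore measure the spread between these libraries, which may be technical.

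Macrophages in tissue come from long-lived resident cells and from monocytes that enter from the blood. Both depend on the receptor Csf1r and on the transcription factor PU.1, the product of Spi1. Classical monocytes carry Ly6C and enter damaged or loaded tissue through chemokine signals, where they take up debris and mature. Resident macrophages of connective tissue are commonly marked by Timd4, Lyve1, Folr2 and Cd163, and macrophages that clear lipid and dead cells by Trem2, Gpnmb and Apoe.

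Sequences just upstream of the start site are shown for 5 members on which the results below turn: 3 inflammatory genes that were among the most raised, the protease gene Ctss, and the resident gene Timd4, which moved the other way. Each window holds 250 bases before the RefSeq start site of build GRCm38.p6, written 5′ to 3′ on the gene's strand. The windows lie at chr3:96293970-96294219 for Fcgr1 (minus strand), chr1:171018676-171018925 for Fcgr4 (plus strand), chr15:75111972-75112221 for Ly6c2 (minus strand) (the first of its listed start sites), chr3:95526536-95526785 for Ctss (plus strand) and chr11:46810549-46810798 for Timd4 (plus strand). Capitals mark matches, on either strand, to the letters GAGGAA (the core of sites for ETS factors such as PU.1), GAGGAAGT (a longer form of the same site, always overlapping the core), the interferon-stimulated response element (GAAA, 2 bases of any kind, GAAA) or TTCNNNGAA (a gamma-activated site, the motif of STAT factors).
Fcgr1: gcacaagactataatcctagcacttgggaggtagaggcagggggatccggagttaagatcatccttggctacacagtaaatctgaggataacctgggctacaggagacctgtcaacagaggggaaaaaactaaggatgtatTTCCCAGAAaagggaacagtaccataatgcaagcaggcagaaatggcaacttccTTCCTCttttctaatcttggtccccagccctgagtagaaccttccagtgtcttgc
Fcgr4: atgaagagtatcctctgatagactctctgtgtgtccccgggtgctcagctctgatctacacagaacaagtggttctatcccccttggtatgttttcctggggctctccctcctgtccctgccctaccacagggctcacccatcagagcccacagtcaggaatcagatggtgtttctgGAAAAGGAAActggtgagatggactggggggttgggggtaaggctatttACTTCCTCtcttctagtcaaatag
Ly6c2: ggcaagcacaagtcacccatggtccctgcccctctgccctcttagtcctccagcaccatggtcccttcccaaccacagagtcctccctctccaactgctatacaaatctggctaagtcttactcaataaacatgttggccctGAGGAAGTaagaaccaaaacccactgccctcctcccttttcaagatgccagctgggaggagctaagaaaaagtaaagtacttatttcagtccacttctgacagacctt
Ctss: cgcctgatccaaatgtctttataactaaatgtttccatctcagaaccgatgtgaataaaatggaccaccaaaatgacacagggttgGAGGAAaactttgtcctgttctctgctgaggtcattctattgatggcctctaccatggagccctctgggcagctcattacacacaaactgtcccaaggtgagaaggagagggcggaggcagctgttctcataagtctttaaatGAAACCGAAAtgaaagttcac
Timd4: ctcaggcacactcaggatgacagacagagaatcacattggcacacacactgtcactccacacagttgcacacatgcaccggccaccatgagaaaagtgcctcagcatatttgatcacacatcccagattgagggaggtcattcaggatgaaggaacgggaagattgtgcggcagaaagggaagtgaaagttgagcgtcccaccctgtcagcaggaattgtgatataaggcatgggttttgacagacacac

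The Fcgr1 window held TTCNNNGAA from -109 to -101 relative to the start site and GAGGAA on the opposite strand from -55 to -50. Fcgr4 held the interferon element from -73 to -64 and GAGGAAGT on the opposite strand from -24 to -17. Ly6c2 held GAGGAAGT from -108 to -101, and Ctss held the interferon element from -21 to -12 and GAGGAA from -164 to -159. Timd4 held none of these letters in its window. The genes shown were picked by hand, and letters and direction of change did not go together in all members. Retnla, which fell against the control, held GAGGAA and GAGGAAGT, while Ms4a7, which rose, had a matched entry without GAGGAA. RefSeq promoters matched 27 of the 37 members, with 35 start sites. GAGGAA lay in 22 of these 35 windows (62.9%), in 18 of the 27 genes, against 23.3% of all 32851 windows of the same length. The longer GAGGAAGT lay in 5 of 35 (14.3%), in C1qc, Fcgr4, Ly6c2 and Retnla, against 2.44%. Ly6c2 supplied 2 of these windows, which overlap. The interferon element lay in 4 of 35 (11.4%), in Aif1, Ctss, Cybb and Fcgr4, against 2.98%. TTCNNNGAA lay in 1 of 35 (2.86%), that of Fcgr1, against 7.02%. Start sites of 1 gene share bases, and a match describes letters and not binding. The other 10 members, Adgre1, Arg1, C1qa, Cd14, Csf1r, Lyve1, Msr1, Nos2, Spi1 and Tyrobp, had no matching entry.

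Expression is given as the deposited signal per gene, rescaled so that the median gene ratio is alike across libraries, and values within a group follow the replicate numbers 1 to 3 or 1 to 4. Scx itself read 589, 439.6 and 317 in the controls and 2082 to 7993 in stimulated Scx+ libraries, against 1.65 to 17.1 in Scx- libraries, in the order the labels give. The deposited signal summed to 67808701 to 79768350 units in the controls and 36577650 to 48473473 in the stimulated libraries, and the number of reads behind it is unknown. Fold changes are on the log2 scale after adding 2 to the signal, which understates the change of genes near 0. Skeletal muscle fibre genes took 22.8% ± 2.48 of the signal in the controls (SD, n = 3), 0.951% ± 0.972 and 2.72% ± 2.09 in Scx+ and Scx- at day 7, and 3.62% ± 3.26 and 9.62% ± 6.86 at day 14 (SD, n = 4 each). All 7 adipocyte marker genes were lower than in the control in each stimulated group (limma, adjusted p under 0.05, against 18.3% to 27.5% of all tested genes). Their summed rescaled signal was 110020 to 160850 in the controls and 3431 to 42104 in the stimulated libraries. These 2 tissues and the members thus moved in opposite directions between the controls and the rest, and the part of the change in tissue make-up in the members' values was not tested.

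All 37 members passed the filter on low values and were tested. The whole set took 0.117% ± 0.0373 of the deposited signal in the controls (SD, n = 3). That share was 0.662% ± 0.115 in Scx+ and 1.14% ± 0.427 in Scx- at day 7, and 0.508% ± 0.0459 and 0.453% ± 0.146 at day 14 (SD, n = 4 each). In bulk tissue, more cells of a type and more RNA per cell cannot be told apart. Libraries were not evenly spread within groups: Scx- day 7 replicate 4 held the highest value of all 19 libraries for 25 of the 37 members, and control replicate 2 the lowest for 21. Control replicate 3 was the highest of the 3 controls for 27 members.

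Against the control, most members were raised in every stimulated group. In Scx+ at day 7, 31 members rose and 2 fell (limma, adjusted p under 0.05 over all tested genes), where 61.3% of the 16619 tested genes were called, 33.8% higher and 27.5% lower. The members' median log2 fold change was 2.06, against 0.18 for all tested genes. In Scx- at day 7, 32 rose and 2 fell (background 58.2%, 32.3% higher and 25.9% lower), with a median of 2.59 against 0.14. At day 14, 28 rose and 2 fell in Scx+ (background 55.9%, 30.9% higher and 25% lower), with a median of 1.60 against 0.15. In Scx- at day 14, 25 rose and 3 fell (background 43.8%, 25.5% higher and 18.3% lower), with a median of 1.39 against 0.12. These 4 comparisons share the same 3 control libraries, so their likeness is not independent. With the mean of the muscle genes as a covariate the Scx+ day 7 count was 24 in place of 33, and the calls of Csf1r, Itgam, Cd14, Clec7a, Marco, Mrc1, Mertk, C1qa and C1qc were the ones that ended. At day 14 in Scx+ it ended those of Aif1, Cd14, Mrc1 and Mertk.

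**Figure D1:**
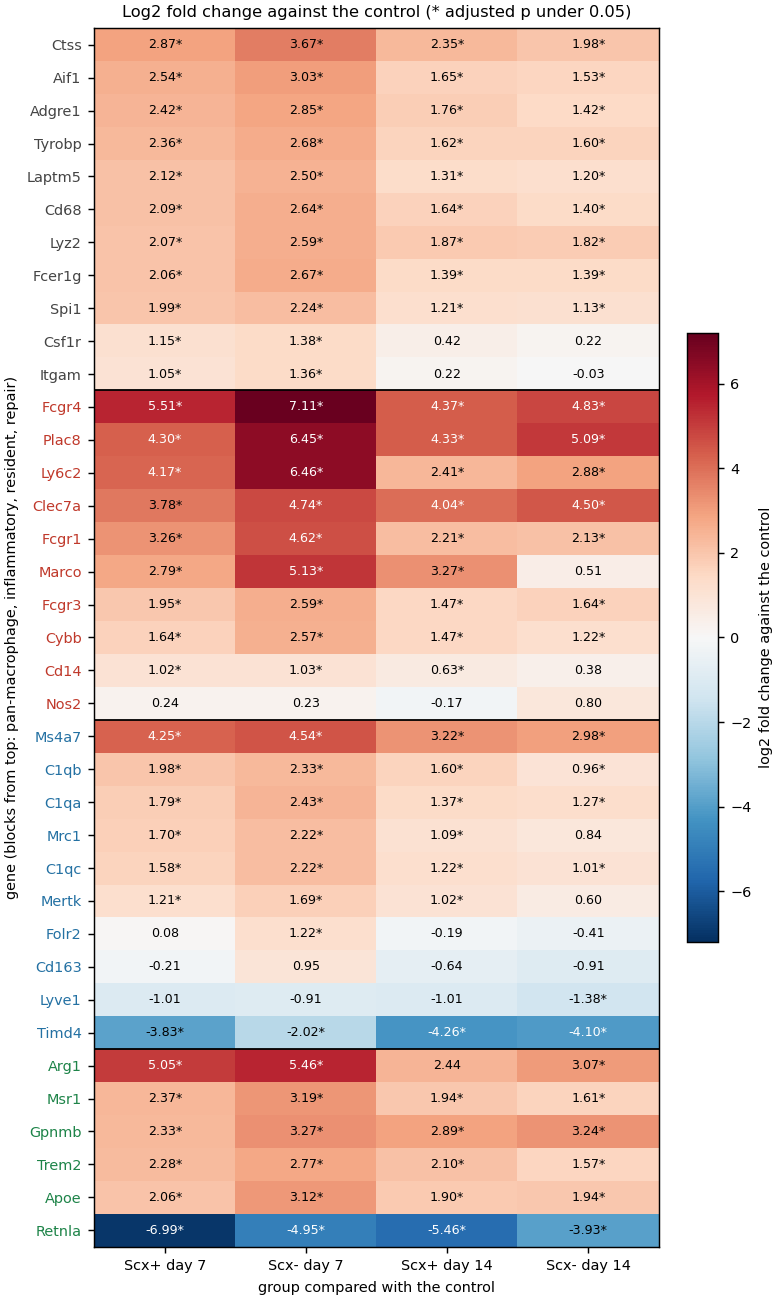
Log2 fold change of each of the 37 members (rows, in blocks by role) in the 4 stimulated groups (columns) against the 3 control libraries, red for higher and blue for lower, with a star where the limma adjusted p was under 0.05. Most rows are red in every column. Retnla (-6.99 in Scx+ at day 7) and Timd4 (-3.83) are the deep blue rows, and Lyve1 is a paler blue in all 4 columns. Cd163, Itgam and Nos2 are among the rows that are not red in every column.

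The pan-macrophage genes made up the most uniform role. All 11 rose in both genotypes at day 7, and 9 of 11 stayed above the control at day 14 in each genotype, the exceptions being Csf1r and Itgam. Csf1r (chr18:61100598-61132149, GRCm38), the receptor for the growth factors CSF-1 and IL-34, was present in every library. Csf1r read 4640, 4652 and 7903 in the controls, 12781, 11877, 13519 and 11106 in Scx+ and 12333, 16708, 10859 and 19477 in Scx- at day 7, and 8928, 7389, 6848 and 6624 in Scx+ and 3328, 9545, 8095 and 6789 in Scx- at day 14. Every day 7 library lay above every control, whereas control replicate 3 lay inside the day 14 range. Csf1r rose by 1.15 ± 0.29 in Scx+ (log2, SE, limma adjusted p = 0.00269) and by 1.38 ± 0.29 in Scx- at day 7 (adjusted p = 0.000702). At day 14 the differences were 0.42 ± 0.29 (adjusted p = 0.238) and 0.22 ± 0.29 (adjusted p = 0.561), neither past the threshold.

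Adgre1 (chr17:57358691-57483527) encodes F4/80, the classic surface marker of mouse macrophages. Adgre1 read 659, 660.1 and 1551 in the controls, 4577, 4383, 5586 and 4405 in Scx+ and 4018, 6450.3, 5467 and 11338 in Scx- at day 7, and 3832, 3504, 2623 and 2245 in Scx+ and 1495, 3321, 2358 and 2640.2 in Scx- at day 14. The stimulated libraries lay above the controls except for Scx- day 14 replicate 1, which lay just under control replicate 3. Adgre1 rose by 2.42 ± 0.34 in Scx+ and 2.85 ± 0.34 in Scx- at day 7 (limma adjusted p = 1.50e-05 and 3.53e-06), and by 1.76 and 1.42 at day 14.

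Cd68 (chr11:69664213-69666153) encodes a lysosomal membrane protein of phagocytes. Cd68 read 1321, 986 and 1523 in the controls, 5073, 4296, 6778 and 5545 in Scx+ and 5688, 9663, 5336 and 12976 in Scx- at day 7, and 4046, 3987, 3895 and 3752 in Scx+ and 2502, 5132, 2576 and 3650.3 in Scx- at day 14. No stimulated library overlapped the controls. Spi1 (chr2:91082390-91115756), the gene of PU.1, was lower in level. Spi1 read 529.9, 366 and 853 in the controls, 2532, 2007, 2229 and 2020.1 in Scx+ and 2017, 2857, 1895 and 4248 in Scx- at day 7, and 1259, 1250.3, 1636 and 1021 in Scx+ and 805, 1582, 1279.7 and 1306 in Scx- at day 14. Its day 7 values were all above its day 14 values in both genotypes. Cd68 rose by 2.09 ± 0.29 and Spi1 by 1.99 ± 0.30 in Scx+ at day 7, and both also passed in the other 3 stimulated groups.

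Cathepsin S, the product of Ctss (chr3:95526786-95556403), is a lysosomal protease that processes antigen. Ctss read 2430.1, 1894 and 3823 in the controls, 19580.3, 15085, 25225 and 17798 in Scx+ and 21502, 37008, 27539 and 54425 in Scx- at day 7, and 12769.7, 17149.9, 11065 and 12619 in Scx+ and 6369.8, 13156, 8005 and 16515 in Scx- at day 14. Its lowest stimulated library, Scx- day 14 replicate 1, still lay above the highest control. Ctss had the largest fold change of this role in Scx+ at day 7 (2.87 ± 0.34, limma adjusted p = 2.61e-06) and in Scx- at day 7 (3.67 ± 0.34, adjusted p = 2.56e-07), followed by Aif1 (2.54 and 3.03) and Adgre1.

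Aif1 encodes IBA1, an actin-binding protein of activated macrophages. Aif1 read 121, 105 and 351 in the controls, 968, 1019, 859 and 1042 in Scx+ and 1037, 1142, 1295 and 2245 in Scx- at day 7, and 792, 691, 550 and 249.6 in Scx+ and 308, 724, 416 and 569.9 in Scx- at day 14. Its Scx- day 14 call ended without control replicate 2 (adjusted p = 0.0533). The signalling adaptor gene Fcer1g pairs with Fc receptors. Fcer1g read 786, 802 and 1558 in the controls, 4688, 3893, 4118 and 3945 in Scx+ and 4457, 6623, 5064 and 10894 in Scx- at day 7, and 2741, 3484, 2405 and 1998 in Scx+ and 1656, 4014, 2192 and 3181 in Scx- at day 14. Laptm5 encodes a lysosomal protein of blood cells. Laptm5 read 2308, 1625 and 3764 in the controls, 10926, 9520.2, 11444 and 10177 in Scx+ and 11153, 14801, 11049 and 19432 in Scx- at day 7, and 6118, 6717, 5325 and 5868 in Scx+ and 3482, 6816, 6656 and 6007 in Scx- at day 14. Both were above every control in each day 7 library.

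Itgam, the CD11b integrin gene, is shared with neutrophils. Itgam read 1441, 1122 and 1459 in the controls, 2423, 2281, 3796 and 2768 in Scx+ and 2283, 3521, 2761 and 6098 in Scx- at day 7, and 2203, 1867, 1069 and 1305 in Scx+ and 1003, 1306, 1396 and 1594 in Scx- at day 14. Its values at day 14 lay across the control range, with differences of 0.22 ± 0.30 in Scx+ and -0.03 ± 0.30 in Scx-. The lysozyme gene Lyz2 is also carried by neutrophils and had the highest level per kilobase of exon of all members in each group. It reached 12250 ± 6818 units per kb in the controls and 71810 ± 33620 in Scx- at day 7 (SD, n = 3 and 4). Tyrobp, the adaptor gene known as DAP12, rose by 2.36, 2.68, 1.62 and 1.60 in Scx+ day 7, Scx- day 7, Scx+ day 14 and Scx- day 14, and Lyz2 by 2.07, 2.59, 1.87 and 1.82. Markers of neutrophils, T and NK cells and B cells were low in level, and some of them were higher in Scx+ at day 7 than in the controls. The 11 neutrophil markers summed to 89.6 to 2149 units per library over all groups, against 21732 to 310670 for the pan-macrophage genes, and Ly6g, Ngp, Mpo and Elane were too low to be tested. Of the 7 tested, 5 were called higher in Scx+ at day 7 and none lower, and the summed signal went from 111 to 121 in the controls to 423 to 1215, with Ngp at 0 in both groups. The 6 T and NK cell markers summed to 20.4 to 142 in the controls and 444 to 787 in Scx+ at day 7 (3 called higher), and the 5 B cell markers to 18 to 52 and 129 to 385 (4 called higher). Cell cycle markers were called higher in all 6 cases, with sums of 222 to 584 and 9336 to 17530. Of all tested genes, 33.8% were called higher in this comparison, and the counts of these short marker lists are to be read against that share. The part of other white blood cells and of cell division in the members' rise was not tested.

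**Figure D2:**
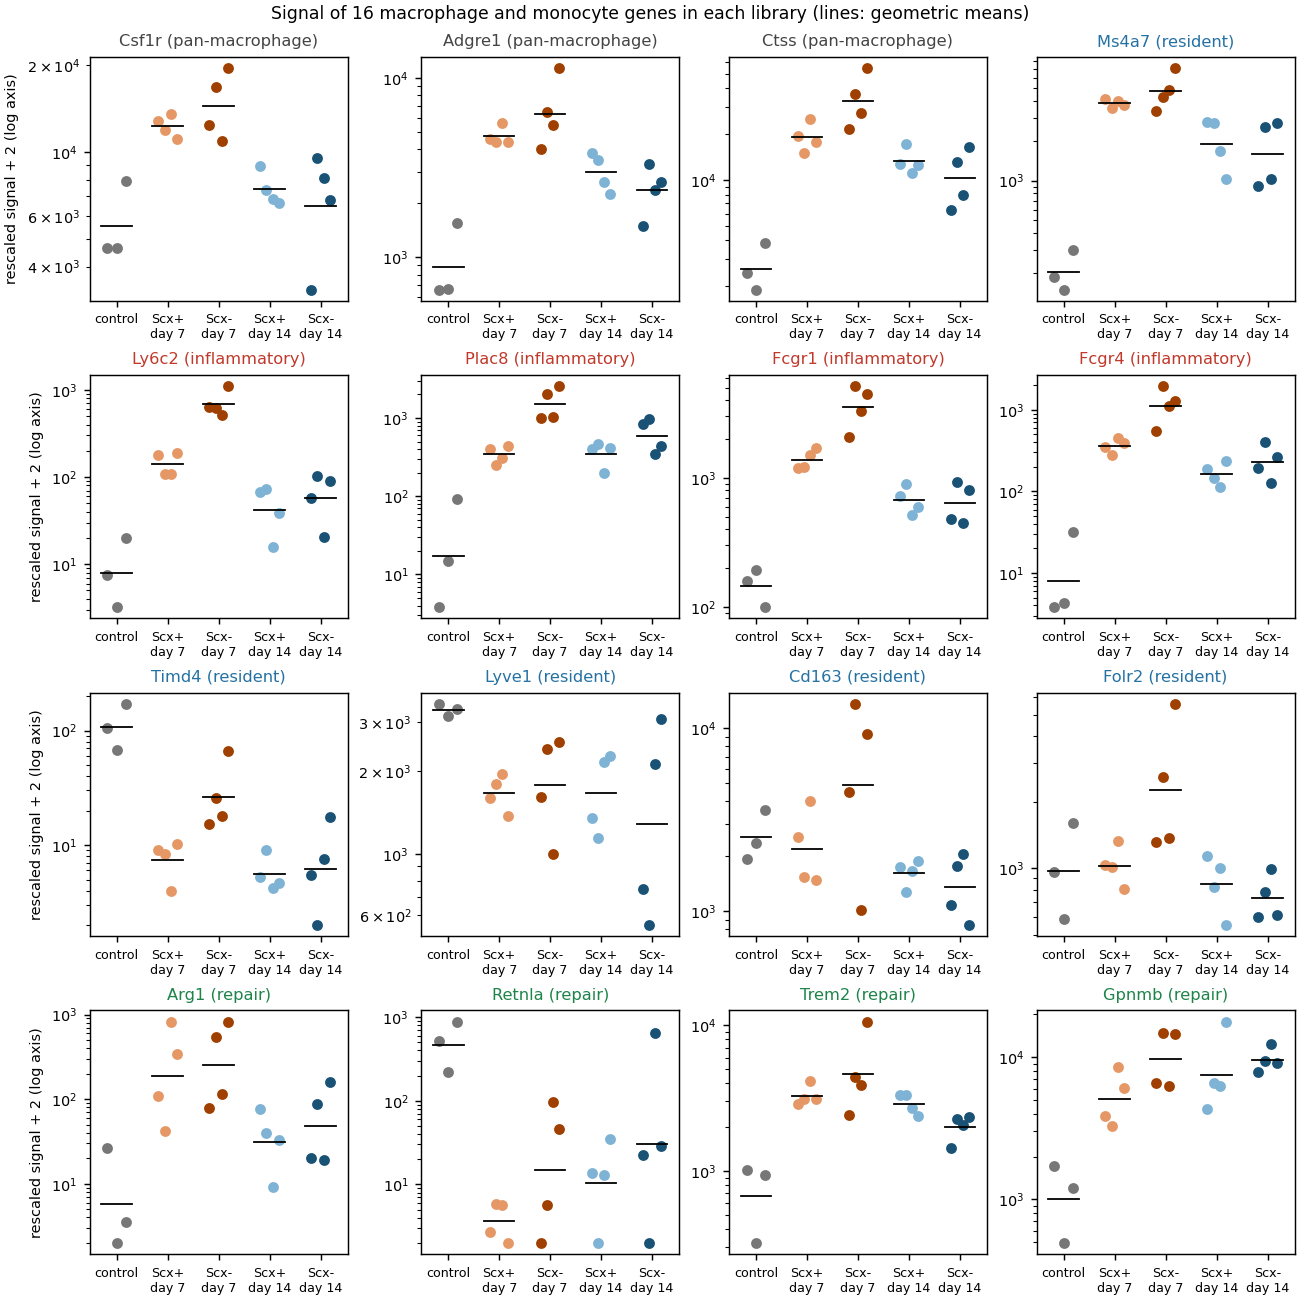
Rescaled signal plus 2 (log axis, arbitrary units) of 16 members in each library (points, 3 controls and 4 libraries in every other group), with a line at each geometric mean. Csf1r, Adgre1 and Ctss are highest at day 7, Ly6c2 and Fcgr1 are highest in Scx- at day 7, and Timd4 and Retnla are highest in the controls.

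Among the inflammatory genes, 9 of 10 rose in Scx+ at day 7, in Scx- at day 7 and in Scx+ at day 14, and 7 of 10 in Scx- at day 14. The role's median log2 fold changes were 3.03, 4.68, 2.31 and 1.89 in that order. Ly6c2 (chr15:75108158-75111970) encodes Ly6C, the surface protein of classical monocytes, and has a near-identical neighbour, Ly6c1, with which reads may have been shared. Ly6c2 read 5.5, 1.2 and 18 in the controls, 176, 106, 105 and 189 in Scx+ and 636, 622, 507 and 1108 in Scx- at day 7, and 64.9, 71.7, 13.6 and 36.3 in Scx+ and 55.6, 102, 18.4 and 88.8 in Scx- at day 14. The 4 Scx- day 7 libraries were the highest of all 19, and the controls held almost no signal. Ly6c2 rose by 4.17 ± 0.65 and 6.46 ± 0.65 at day 7 (limma adjusted p = 3.84e-05 and 5.96e-07) and by 2.41 ± 0.65 and 2.88 ± 0.65 at day 14 in Scx+ and Scx- (adjusted p = 0.00484 and 0.00201).

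Plac8 (chr5:100553725-100572245) is another gene of classical monocytes. Plac8 read 1.8, 13 and 89.9 in the controls, 402, 246, 310.1 and 438 in Scx+ and 1009, 2043, 1027 and 2565 in Scx- at day 7, and 402, 459, 196 and 411 in Scx+ and 835, 981, 349 and 433 in Scx- at day 14. Unlike Ly6c2, its Scx+ values at day 14 spanned nearly the same range as at day 7. The rises were 4.30 and 4.33 in Scx+ at day 7 and day 14, and 6.45 and 5.09 in Scx-.

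The Fc receptor genes Fcgr1, Fcgr3 and Fcgr4 bind IgG on phagocytes, and as paralogues they may have shared reads. Fcgr1 (chr3:96282909-96293969) encodes CD64, the high-affinity receptor. Fcgr1 read 157, 189.9 and 97.1 in the controls, 1189, 1205, 1508 and 1692 in Scx+ and 2075, 5171, 3288 and 4484 in Scx- at day 7, and 720, 903, 516 and 595 in Scx+ and 481, 924, 444 and 808 in Scx- at day 14. No stimulated library overlapped the controls, and the lowest Scx- day 7 library lay above the highest Scx+ day 7 library. Fcgr1 rose by 3.26 ± 0.32 and 4.62 ± 0.32 at day 7 (limma adjusted p = 4.76e-07 and 1.31e-08).

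Fcgr4 (chr1:171018920-171029761) lies beside Fcgr3 on chromosome 1. Fcgr4 read 1.8, 2.3 and 29.5 in the controls, 352, 277, 449 and 395 in Scx+ and 542, 1960.4, 1109 and 1267 in Scx- at day 7, and 189, 146, 112 and 231 in Scx+ and 193, 400.3, 127 and 263 in Scx- at day 14. It had the largest rise of all members at day 7, 5.51 ± 0.60 in Scx+ and 7.11 ± 0.60 in Scx-, and remained higher at day 14 by 4.37 ± 0.60 and 4.83 ± 0.60 (limma, every adjusted p under 0.05). Fcgr3 rose less, by 1.95 and 2.59 at day 7.

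Cybb encodes the catalytic subunit of the phagocyte NADPH oxidase. Cybb read 875, 743 and 1169.7 in the controls, 2718, 2005, 3706 and 3262 in Scx+ and 3611, 7000.2, 4222 and 8161 in Scx- at day 7, and 2455, 2760.1, 2364 and 2556 in Scx+ and 1311, 2173, 2453 and 2909 in Scx- at day 14. All stimulated libraries lay above the controls. Clec7a, the beta-glucan receptor dectin-1, rose by 3.78, 4.74, 4.04 and 4.50 in Scx+ day 7, Scx- day 7, Scx+ day 14 and Scx- day 14, from control values of 56.6, 1 and 253. Cd14, the lipopolysaccharide co-receptor, rose by 1.02 and 1.03 at day 7. Its smaller Scx+ day 14 rise (0.63) ended without control replicate 1 or 2 or without any 1 of Scx+ day 14 replicates 1 to 3 (adjusted p = 0.0546 to 0.242). In all, 9 of 19 alternatives ended it, with an adjusted p of up to 0.248.

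Marco, a scavenger receptor gene, was low and uneven. Marco read 0, 6.7 and 0 in the controls, 18.7, 1.7, 95.9 and 33.3 in Scx+ and 56.5, 704, 26.3 and 144 in Scx- at day 7, and 90, 51.3, 4.8 and 27.5 in Scx+ and 5.8, 5, 0 and 2.3 in Scx- at day 14. A pair of controls was listed at 0, and Scx- day 7 replicate 2 held most of the Scx- day 7 signal. Marco passed in Scx- at day 7 (5.13 ± 1.15, limma adjusted p = 0.00109). Its Scx+ day 7 call (2.79, limma adjusted p = 0.0434) was lost on leaving out control replicate 1 or 3 or Scx+ day 7 replicate 1, 3 or 4 (limma adjusted p = 0.0654 to 0.137). The Scx+ day 14 call (3.27) was lost without control replicate 1 or 3 or Scx+ day 14 replicate 1 or 2 (limma adjusted p = 0.054 to 0.0786). Counting changes of processing as well, 11 of 19 alternatives ended the Scx+ day 7 call and 6 of 19 alternatives the Scx+ day 14 call.

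Nos2, the inducible nitric oxide synthase often used as a mark of inflammatory macrophages, was the one member of this role that passed in no comparison. Nos2 read 121, 89.7 and 75.5 in the controls, 51.3, 91.1, 162 and 197 in Scx+ and 136, 111, 125 and 78 in Scx- at day 7, and 124, 37.4, 44.1 and 224 in Scx+ and 822, 45.9, 241 and 77.4 in Scx- at day 14. The control range lay inside the stimulated range in each group but Scx- day 7, and a single library, Scx- day 14 replicate 1, stood at 822. The differences from the control were 0.24 ± 0.78, 0.23 ± 0.78, -0.17 ± 0.78 and 0.80 ± 0.78 in Scx+ day 7, Scx- day 7, Scx+ day 14 and Scx- day 14 (limma adjusted p = 0.424 to 0.861).

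The resident genes divided. Complement C1q and Ms4a7 rose in all 4 stimulated groups and Mrc1 and Mertk in all but Scx- at day 14, whereas Timd4 fell in all 4, Lyve1 was lower in every stimulated group by its values, and Cd163 passed in no comparison. In Scx+ at day 7, 6 of the 10 rose and 1 fell. The counts were 7 and 1 in Scx- at day 7, 6 and 1 in Scx+ at day 14, and 4 and 2 in Scx- at day 14. The roles are small, and their counts are to be read against the shares over all tested genes given above. Those shares were 33.8% higher and 27.5% lower in Scx+ at day 7, and 25.5% and 18.3% in Scx- at day 14. Timd4 (chr11:46810800-46844332) encodes TIM-4, a phosphatidylserine receptor with which resident macrophages bind dying cells. Timd4 read 103, 65 and 169 in the controls, 7.1, 6.4, 2 and 8.2 in Scx+ and 13.4, 23.6, 16.1 and 64.8 in Scx- at day 7, and 3.3, 7, 2.2 and 2.7 in Scx+ and 3.5, 0, 5.6 and 15.7 in Scx- at day 14. No stimulated library reached the lowest control, and Scx- day 7 replicate 4 came closest to it. Timd4 fell in all 4 groups on the log2 scale, with changes of -3.83 ± 0.67 in Scx+ and -2.02 ± 0.67 in Scx- at day 7 (limma adjusted p = 0.000117 and 0.0164), and -4.26 ± 0.67 and -4.10 ± 0.67 at day 14 (adjusted p = 6.16e-05 and 0.000169). The Scx- day 7 call ended without control replicate 3 (adjusted p = 0.0716) with library totals as the scaling (adjusted p = 0.0971) and with a pseudocount of 0.5 (adjusted p = 0.0624).

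Lyve1 (chr7:110850607-110863239), a hyaluronan receptor gene, is shared by resident macrophages and lymphatic endothelium. Lyve1 read 3505, 3174 and 3342 in the controls, 1587, 1784, 1949 and 1369 in Scx+ and 1609.6, 2401, 999.8 and 2545 in Scx- at day 7, and 1349, 1142, 2149 and 2265 in Scx+ and 745, 549, 2117 and 3084 in Scx- at day 14. Every stimulated library lay below every control, although Scx- day 14 replicate 4 came close to the lowest of them. The difference was -1.01 ± 0.47 in Scx+ at day 7 (limma adjusted p = 0.0714), -0.91 ± 0.47 in Scx- at day 7 (adjusted p = 0.104) and -1.01 ± 0.47 in Scx+ at day 14 (adjusted p = 0.0756), none past the threshold. It passed in Scx- at day 14 (-1.38 ± 0.47, adjusted p = 0.0244), but not without any 1 control or without Scx- day 14 replicate 1 or 2, with limma adjusted p from 0.0532 to 0.0699. In all, 10 of 20 alternatives ended it, including library totals, upper quartile scaling, quality weights and fitting only these 2 groups (adjusted p up to 0.369). The authors' deposited table has the reverse pattern of calls. There Lyve1 was below 0.05 in Scx+ at day 7 (-0.99 ± 0.16, SE), Scx- at day 7 (-0.78 ± 0.33) and Scx+ at day 14 (-0.94 ± 0.29). It was not below 0.05 in Scx- at day 14 (-1.07 ± 0.55). Prox1 and Flt4, markers of lymphatic endothelium, differed from the control by 0.54 ± 0.45 and 0.03 ± 0.53 in Scx+ at day 7 and passed in neither case. In Scx- at day 14 they differed by 0.50 ± 0.45 and -0.68 ± 0.53, again without passing. There the 4 lymphatic markers took 0.00985%, 0.00919%, 0.0211% and 0.0302% of the signal in replicates 1 to 4, low and high in the same libraries as Lyve1, and their part in its difference was not tested.

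Folr2 (chr7:101839988-101857194), the folate receptor beta gene, was near its control level in 3 of the 4 stimulated groups. Folr2 read 964, 588 and 1609.8 in the controls, 1039.5, 1011, 1331 and 801 in Scx+ and 1315, 2607, 1368 and 5599.6 in Scx- at day 7, and 1139, 824, 1005 and 551 in Scx+ and 601, 783, 990.3 and 609.8 in Scx- at day 14. Only Scx- day 7 replicates 2 and 4 lay above all controls. The one call was a rise in Scx- at day 7 (1.22 ± 0.43, limma adjusted p = 0.0209), lost without control replicate 1 or 2 or Scx- day 7 replicate 4, with limma adjusted p from 0.05 to 0.131. The muscle covariate (0.66, adjusted p = 0.284) and fitting only these 2 groups (adjusted p = 0.102) ended it as well.

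Cd163 (chr6:124304656-124330527) encodes the haemoglobin scavenger receptor. Cd163 read 1923, 2366 and 3594 in the controls, 2548, 1538, 3998 and 1489 in Scx+ and 4477, 13614, 1019 and 9346 in Scx- at day 7, and 1745, 1271, 1669.5 and 1878 in Scx+ and 1081, 1778, 2069 and 840.3 in Scx- at day 14. The Scx- day 7 group held the highest value of all 19 libraries, in replicate 2, and the second lowest, in replicate 3. No difference from the control passed (log2 -0.91 to 0.95, limma adjusted p = 0.213 to 0.794).

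Mrc1 (chr2:14229392-14332057), the mannose receptor CD206, is carried by resident and repair macrophages and also by lymphatic endothelium. Mrc1 read 2642, 2331 and 4685 in the controls, 10775, 8609.8, 11187 and 9638 in Scx+ and 10061, 19732, 9577 and 22191 in Scx- at day 7, and 9460.3, 8019, 5481 and 4383 in Scx+ and 3208, 5387, 7672 and 6801 in Scx- at day 14. All 8 day 7 libraries lay above the controls, while 1 library in each day 14 group did not. Mrc1 rose by 1.70 ± 0.36 and 2.22 ± 0.36 at day 7 (limma adjusted p = 0.000524 and 5.35e-05) and by 1.09 ± 0.36 in Scx+ at day 14 (adjusted p = 0.0151). The last call was lost without control replicate 1 or 2 or Scx+ day 14 replicate 1, with limma adjusted p from 0.0506 to 0.0779. The muscle covariate ended it too (adjusted p = 0.191), and in Scx- at day 14 Mrc1 did not pass (0.84 ± 0.36, adjusted p = 0.0648).

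C1qa, C1qb and C1qc encode the chains of C1q, which opens the classical complement pathway and helps macrophages take up dead cells. The genes lie together on chromosome 4 between 136880129 and 136898803. C1qa read 3742, 2450 and 5781 in the controls, 15026, 12309, 13017 and 11775 in Scx+ and 15321, 22779.6, 14526 and 33139 in Scx- at day 7, and 12046, 9992, 9112 and 8149.5 in Scx+ and 5215, 12349.6, 10818 and 9718 in Scx- at day 14. Its highest library was Scx- day 7 replicate 4. C1qb read 3225, 3046 and 5749 in the controls, 18186, 12739, 15717 and 14337 in Scx+ and 13937, 22259.8, 14553 and 30949 in Scx- at day 7, and 13046, 11120, 11561 and 11058 in Scx+ and 3814, 14160.2, 8009 and 7235 in Scx- at day 14. The neighbours moved almost alike. C1qc read 3987, 3026 and 5438 in the controls, 14405, 10373, 12455 and 11308 in Scx+ and 14596, 23040.1, 12655 and 29236 in Scx- at day 7, and 11094, 8593, 9886 and 8309.7 in Scx+ and 4600.1, 12682, 9639 and 7849 in Scx- at day 14. Scx- day 14 replicate 1 was the lowest stimulated library for each of the 3 genes. C1qa rose by 1.79 and 2.43, C1qb by 1.98 and 2.33, and C1qc by 1.58 and 2.22 in Scx+ and Scx- at day 7. At day 14 in Scx- the rise was lost for C1qc without control replicate 2 (adjusted p = 0.083) and for C1qb without control replicate 1 or 2 or Scx- day 14 replicate 2, 3 or 4, with limma adjusted p from 0.055 to 0.13. With changes of processing included, 9 of 20 alternatives ended the C1qb call and 3 of 20 alternatives the C1qc call.

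Ms4a7, a membrane protein gene of mature macrophages, had the largest rise of the resident role. Ms4a7 read 185, 148 and 296 in the controls, 4176, 3539, 4023 and 3705 in Scx+ and 3357, 4304, 4851 and 7089 in Scx- at day 7, and 2770, 2704, 1671 and 1028 in Scx+ and 912, 2524, 1026 and 2743 in Scx- at day 14. The lowest stimulated library held more than any control. Ms4a7 rose by 4.25 ± 0.40 and 4.54 ± 0.40 at day 7 and by 3.22 ± 0.40 and 2.98 ± 0.40 at day 14 (limma, every adjusted p under 0.05). The engulfment receptor gene Mertk rose by 1.21 and 1.69 at day 7 and by 1.02 in Scx+ at day 14. Its Scx+ calls ended without control replicate 3 (adjusted p = 0.0569 at day 7 and 0.161 at day 14), and that at day 14 also without Scx+ day 14 replicate 4 (adjusted p = 0.0538). The muscle covariate ended both Scx+ calls (adjusted p = 0.0657 and 0.0506) and sample quality weights that at day 14. In Scx- at day 14 Mertk did not pass (0.60 ± 0.34, adjusted p = 0.158).

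The repair genes held both the steepest fall and some of the largest rises. In Scx+ at day 7, in Scx- at day 7 and in Scx- at day 14, 5 of the 6 rose and 1 fell; in Scx+ at day 14, 4 rose and 1 fell. Arg1 (chr10:24915221-24927484) encodes arginase 1, which turns arginine to ornithine, a precursor of proline and polyamines. Arg1 read 24.8, 0 and 1.5 in the controls, 107, 39.7, 826 and 340.4 in Scx+ and 76.9, 540, 114 and 810.1 in Scx- at day 7, and 75.3, 37.5, 7.2 and 30.9 in Scx+ and 18, 84.5, 17.2 and 156 in Scx- at day 14. Values within each day 7 group were widely spread, and the lowest still lay above the highest control. Arg1 rose by 5.05 ± 1.16 and 5.46 ± 1.16 at day 7 (limma adjusted p = 0.00123 and 0.000735). The day 14 change was 2.44 ± 1.16 in Scx+ (adjusted p = 0.0831, not passed) and 3.07 ± 1.16 in Scx- (adjusted p = 0.0409), the latter lost without control replicate 2 or 3 or Scx- day 14 replicate 2 or 4, with limma adjusted p from 0.0807 to 0.174. In all, 11 of 20 alternatives ended the Scx- day 14 call.

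Retnla (chr16:48842551-48844461) encodes RELM-alpha, a secreted protein of alternatively activated macrophages that fat cells also make. Retnla read 509.7, 218 and 883 in the controls, 0.7, 3.8, 3.6 and 0 in Scx+ and 0, 3.7, 95.5 and 43.9 in Scx- at day 7, and 11.7, 0, 10.9 and 32.8 in Scx+ and 20.4, 0, 647 and 27.1 in Scx- at day 14. All 12 libraries of the other 3 stimulated groups lay below the lowest control, and in Scx- day 14 a single library, replicate 3, reached the control range. Retnla fell in all 4 groups on the log2 scale: -6.99 ± 1.55 in Scx+ at day 7 (limma adjusted p = 0.000897), -4.95 ± 1.55 in Scx- at day 7 (adjusted p = 0.0113) and -5.46 ± 1.55 in Scx+ at day 14 (adjusted p = 0.00653). The Scx- day 14 change of -3.93 ± 1.55 (adjusted p = 0.0479) was lost without any 1 of the controls or Scx- day 14 replicates 1, 2 or 4, with limma adjusted p from 0.0603 to 0.139. In all, 13 of 20 alternatives ended it, with an adjusted p of up to 0.366. The adipocyte gene Adipoq fell alongside it, with a change of -4.39 ± 1.01 in Scx+ at day 7, and whether the Retnla signal came from fat or from macrophages was not tested.

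Trem2 (chr17:48346401-48354147) encodes a lipid-sensing receptor that signals through Tyrobp. Trem2 read 1009.7, 319 and 942 in the controls, 2866, 3108, 4124 and 3097 in Scx+ and 2427, 4417, 3909 and 10597 in Scx- at day 7, and 3320.4, 3319, 2691 and 2369 in Scx+ and 1426, 2274, 2078 and 2354 in Scx- at day 14. No stimulated library overlapped the controls. Trem2 rose by 2.28 ± 0.41 and 2.77 ± 0.41 at day 7 and by 2.10 and 1.57 at day 14. Gpnmb (chr6:49036546-49070929), a glycoprotein gene of lipid-laden macrophages, behaved otherwise. Gpnmb read 1722, 493 and 1196 in the controls, 3878, 3254, 8572 and 6046 in Scx+ and 6569.8, 14786, 6241 and 14581 in Scx- at day 7, and 4344, 6549, 6209 and 17759.7 in Scx+ and 7794, 9454, 12363 and 9019.7 in Scx- at day 14. Its day 14 values overlapped its day 7 values in both genotypes, and the highest of all libraries was Scx+ day 14 replicate 4. Gpnmb rose by 2.33 ± 0.49 and 2.89 ± 0.49 in Scx+ at day 7 and day 14, and by 3.27 ± 0.49 and 3.24 ± 0.49 in Scx- (limma, every adjusted p under 0.05).

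Apoe, the lipid carrier gene, is also made by other cells. Apoe read 16514, 15576 and 15813 in the controls, 76910.4, 54478, 75653 and 61098 in Scx+ and 96059.8, 178549, 121991 and 176245 in Scx- at day 7, and 65567, 48717, 46816 and 85073 in Scx+ and 38169, 90950.1, 64099 and 63945 in Scx- at day 14. The controls lay within a narrow range and far below all stimulated libraries, and after Lyz2 it had the highest level per kilobase of any member in each stimulated group (31350 ± 5157 units per kb in Scx+ at day 7, SD, n = 4). Msr1 encodes the class A scavenger receptor. Msr1 read 305, 312 and 292 in the controls, 1228, 1249, 2397 and 1662 in Scx+ and 1689, 3939, 1802 and 4919 in Scx- at day 7, and 1203, 1198, 1399 and 912 in Scx+ and 849, 1196, 724 and 1022 in Scx- at day 14. Apoe rose by 2.06 and 3.12 and Msr1 by 2.37 and 3.19 in Scx+ and Scx- at day 7.

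Dividing each member by Csf1r in the same library gives its level relative to that gene, and the outcome depends on the gene chosen. In Scx+ at day 7 Csf1r rose by 1.15, less than most members, whereas Adgre1 rose by 2.42. Set against Adgre1, resident genes such as Mrc1 (1.70) and C1qa (1.79) would lie below the control mean. Timd4 stood at a log2 difference from Csf1r of -5.71 ± 0.36 in the controls (SD, n = 3) and -10.69 ± 0.72 in Scx+ at day 7 (SD, n = 4). Lyve1 went from -0.73 ± 0.45 to -2.89 ± 0.15, Cd163 from -1.13 ± 0.15 to -2.48 ± 0.56 and Folr2 from -2.51 ± 0.40 to -3.58 ± 0.18. These 4 were the resident genes whose mean relative to Csf1r lay below that of the controls, and the other 6 of the 10 lay above it, Ms4a7 the most (-4.77 ± 0.17 to -1.67 ± 0.09). In Scx- at day 7 the same 4 were below, but Folr2 by little (-2.67 ± 0.63) and Cd163 with a wide spread (-1.56 ± 1.33). Of the 10 inflammatory genes, 8 lay above the control mean in each genotype at day 7, and Nos2 and Cd14 lay below it. This was not particular to that role: 9 of the 10 pan-macrophage genes other than Csf1r (all but Itgam) and 5 of the 6 repair genes (all but Retnla) also lay above. Ly6c2 stood at -9.47 ± 0.96 in the controls, -6.45 ± 0.52 in Scx+ at day 7 and -4.39 ± 0.26 in Scx- at day 7. Fcgr1 stood at -5.26 ± 0.92, -3.15 ± 0.31 and -2.03 ± 0.41 in the same order. At day 14 Ly6c2 was -7.48 ± 0.92 in Scx+ and -6.81 ± 1.25 in Scx-. Itgam kept its place on this scale, with -2.06 ± 0.37 in the controls and -2.15 ± 0.28 and -2.08 ± 0.33 in Scx+ and Scx- at day 7. These ratios are descriptions without a test, and an unequal change of 2 genes does not show that Csf1r itself was constant per cell.

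**Figure D3:**
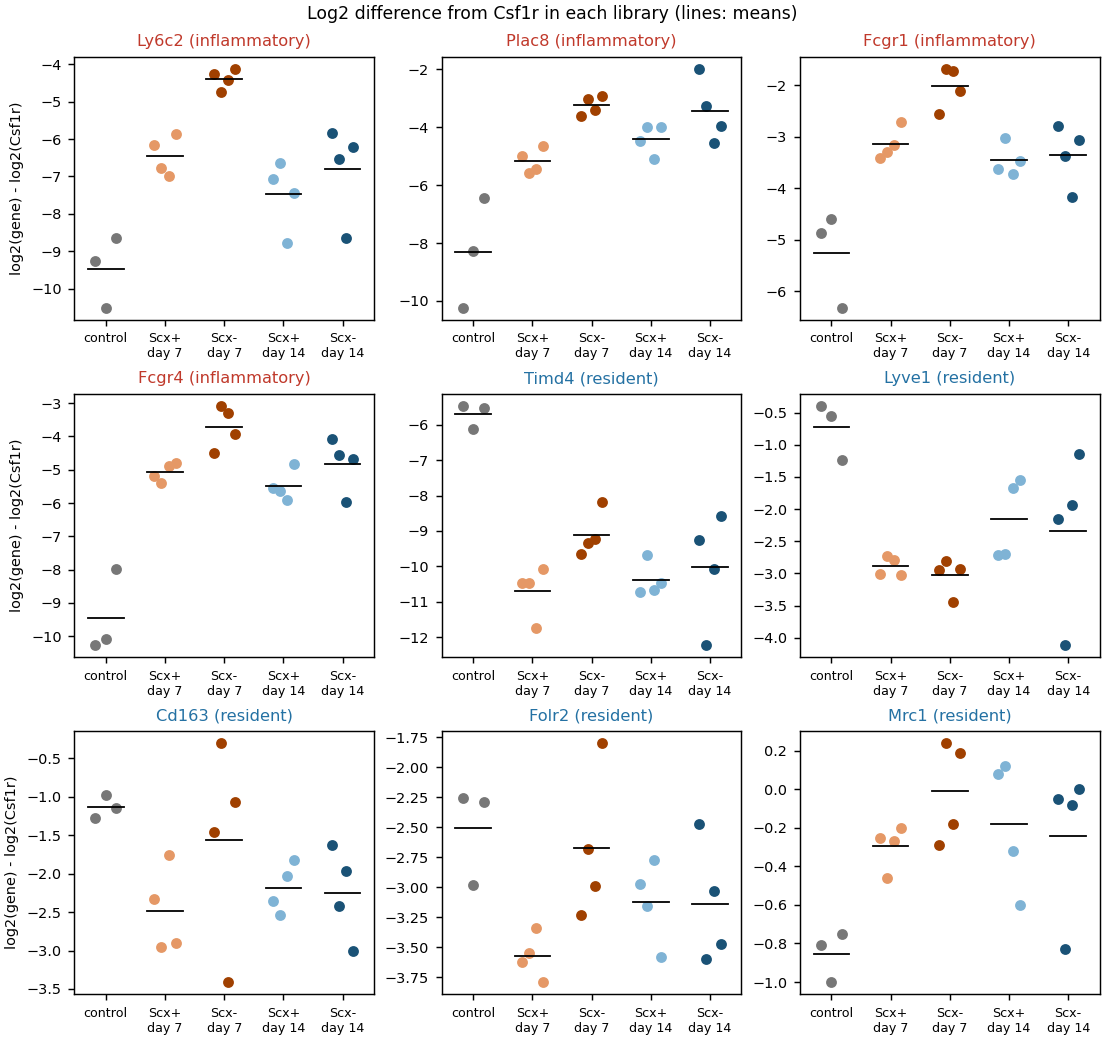
Log2 of the rescaled signal of 9 members minus log2 of that of Csf1r in each library (points), with a line at each group mean (n = 3 controls, n = 4 otherwise). By group mean, Ly6c2, Plac8, Fcgr1 and Fcgr4 are lowest in the controls and highest at day 7 in Scx-, whereas Timd4 and Lyve1 are highest in the controls. For Plac8 the means of Scx- at day 7 (-3.24 ± 0.32, SD) and day 14 (-3.44 ± 1.09) are close, and its highest library is Scx- day 14 replicate 1.

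The genotype comparison asks whether loss of scleraxis went with another macrophage response. At day 7, 1 of the 37 members passed, Fcgr1, which was higher in Scx- (background 0.77% of tested genes in either direction, 0.433% higher). It rose by 1.36 ± 0.30 (log2, SE, limma adjusted p = 0.0388), from 1398 ± 245 in Scx+ to 3755 ± 1363 in Scx- (SD, n = 4 each). The adjusted p was 0.00846 without Scx- replicate 1. Leaving out any other of the 8 day 7 libraries put it above the threshold, at 0.0503 to 0.193, and so did the muscle covariate (0.122), upper quartile scaling (0.054), the deposited scale (0.0624), no filter (0.0503) and fitting only these 2 groups (0.0792).

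At day 7, 36 of the 37 members had a higher group mean on the log scale in Scx-, with a median of 0.61. The members share libraries, so these are not independent observations. No share over all tested genes is given beside such counts of direction here or below, so they only describe the members. For 6 members the 4 Scx- libraries lay above the 4 Scx+ libraries, where 3.71% of tested genes did so: Fcgr1, Fcgr4, Ly6c2, Plac8, Timd4 and Apoe. Ly6c2 averaged 144 ± 44.6 in Scx+ libraries and 718 ± 266 in Scx- libraries (SD, n = 4 per genotype), a difference of 2.29 ± 0.60 with a limma adjusted p of 0.11. Plac8 differed by 2.16 ± 0.67 (adjusted p = 0.241), Fcgr4 by 1.60 ± 0.55 (adjusted p = 0.343), Timd4 by 1.82 ± 0.62 (adjusted p = 0.34) and Apoe by 1.06 ± 0.27 (adjusted p = 0.0846). None of these 5 passed over all genes. By role the medians were 0.43 for pan-macrophage, 1.16 for inflammatory, 0.58 for resident and 0.88 for repair genes. Marco and Retnla had large but uncertain differences, 2.34 ± 1.06 and 2.04 ± 1.43.

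In the authors' deposited table, which holds 35 of the 37 members (not Clec7a and Retnla), 9 members were below 0.05 at day 7, all higher in Scx- (4.73% of its 15951 genes were below). They are Apoe, Ctss, Cybb, Fcgr1, Fcgr4, Folr2, Ly6c2, Plac8 and Timd4. The authors' deposited table gives Ly6c2 a log2 fold change of 2.32 ± 0.30 (SE) and Fcgr1 one of 1.42 ± 0.27 (SE). At day 14 the authors' deposited table has 1 member below 0.05, Marco, lower in Scx- (1.11% of all genes).

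Interferon-induced genes moved with the genotype at day 7. Of 10 listed, 7 were higher in Scx- (limma, adjusted p under 0.05, against 0.433% of all tested genes), among them Irf7 by 2.35 ± 0.27 and Ifit3 by 2.94 ± 0.42. Their summed signal was 5601 to 14083 in Scx+ and 24703 to 81573 in Scx- at day 7. Fcgr1 is a known interferon-induced gene as well as a macrophage gene, and the part of the interferon response in its difference was not tested.

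At day 14 no member differed between genotypes by limma (background 0.517%). An unadjusted p under 0.05 was held by 1 of 37 members, against 2429 of all 16619 tested genes. Trem2 was the one member whose 4 Scx- libraries did not overlap the 4 Scx+ libraries, and they lay below (-0.54 ± 0.38, adjusted p = 0.5), where 2.94% of tested genes lay below and 1.87% above. Group means were higher in Scx- for 12 members and lower for 25, with a median of -0.13. Fcgr1 averaged 683 ± 169 in Scx+ libraries and 664 ± 238 in Scx- libraries (SD, n = 4 per genotype), a difference of -0.08 ± 0.30, and Ly6c2 differed by 0.48 ± 0.60. The change of the genotype difference from day 7 to day 14 was tested directly. It was negative for 35 of 37 members, with a median of -0.76, and none passed (background 0.0181%). An unadjusted p under 0.05 was held by 10 members, against 721 of all 16619 tested genes. The lowest adjusted p was that of Fcgr1 (-1.44 ± 0.42, adjusted p = 0.416), so the data do not show that the genotype difference differed between the days.

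**Figure D4:**
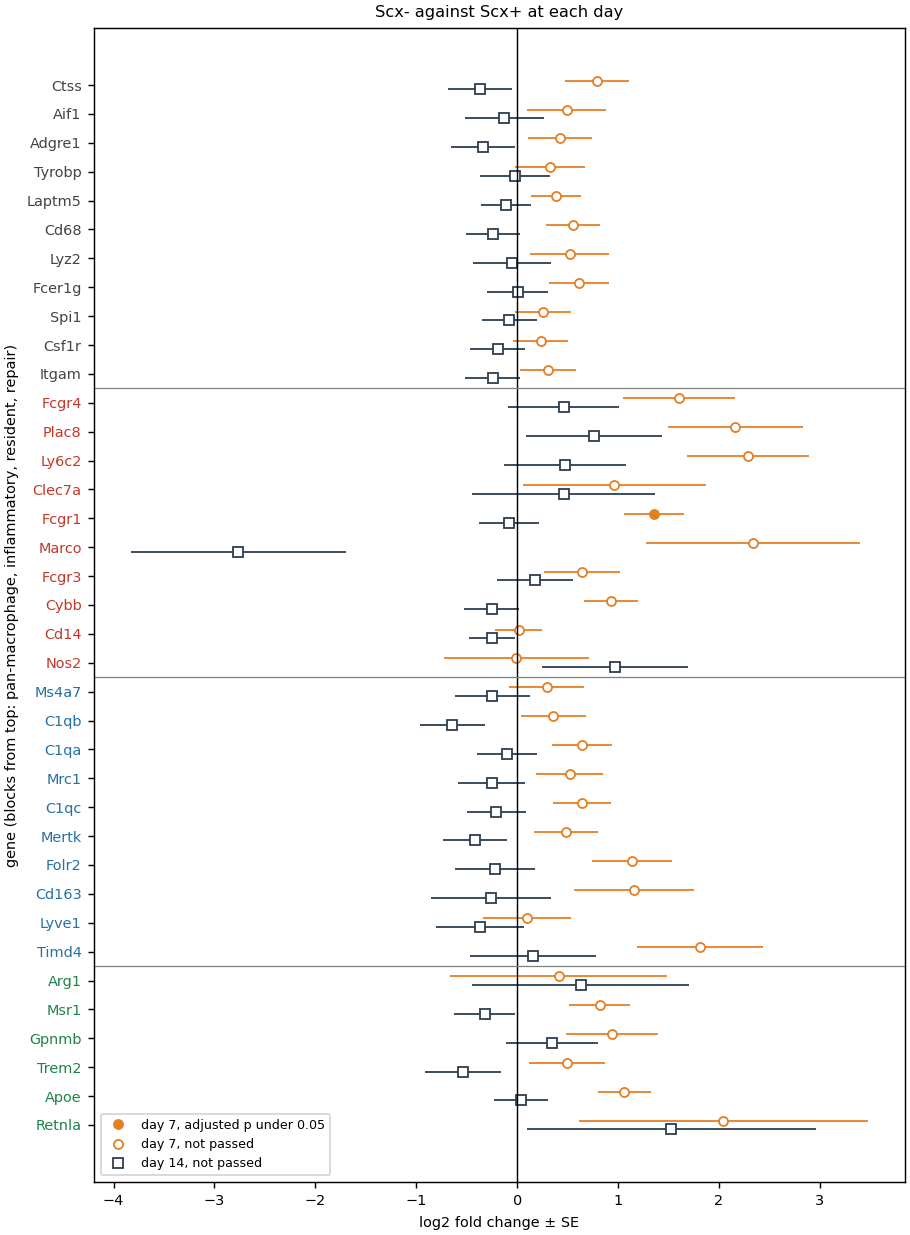
Log2 fold change of Scx- against Scx+ (horizontal axis, bars are the SE of the limma fit) for each member at day 7 (circles) and day 14 (squares), in blocks by role. The filled circle is Fcgr1 at day 7 (1.36 ± 0.30), and nearly all circles lie right of 0 while the squares lie on both sides.

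From day 7 to day 14 the members fell in Scx- mice. There 22 of 37 were lower at day 14 and none higher (limma, adjusted p under 0.05; background 5.25%, 1.4% higher and 3.86% lower), with a median of -1.31. In Scx+ none passed (background 0.0301%), 32 of 37 were negative and the median was -0.43. There 10 members had an unadjusted p under 0.05, against 1758 of all 16619 tested genes. Since the test of the difference between these changes passed for no member, as given above, the falls are not shown to be particular to Scx-. The 4 libraries of day 14 lay below the 4 of day 7 for 24 members in Scx- and for 13 in Scx+, where 8.37% and 6.11% of tested genes did so.

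By role, 9 of 11 pan-macrophage, 5 of 10 inflammatory, 6 of 10 resident and 2 of 6 repair genes fell in Scx-. Among the genes that passed, the largest falls were those of Marco (-4.62 ± 1.06), Ly6c2 (-3.58 ± 0.60), Fcgr1 (-2.48 ± 0.30) and Fcgr4 (-2.28 ± 0.55). Ly6c2 (limma adjusted p = 0.00215) and Fcgr1 (adjusted p = 0.000136) were the 2 genes whose calls held under all 21 alternatives. The remaining falls ran from that of Ctss (-1.69 ± 0.32) to that of Spi1 (-1.11 ± 0.27). Among them were Folr2 (-1.63), Msr1 (-1.57), Ms4a7 (-1.56), Aif1 (-1.50), Adgre1 (-1.42), Mrc1 (-1.39), Itgam (-1.38), C1qb (-1.37), Cybb (-1.35), Laptm5 (-1.31), Fcer1g (-1.28), Cd68 (-1.24), C1qc (-1.20), Apoe (-1.17), C1qa (-1.16) and Csf1r (-1.16). Arg1 (-2.40 ± 1.08, adjusted p = 0.203), Timd4 (-2.09 ± 0.62, adjusted p = 0.0598) and Cd163 (-1.86 ± 0.59, adjusted p = 0.0797) had larger differences than Ctss and did not pass. Plac8 (-1.36 ± 0.67, adjusted p = 0.244), Clec7a (-0.25) and Gpnmb (-0.03) did not pass either.

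The number of calls depended on single libraries. It was 8 without Scx- day 7 replicate 4, 9 without Scx- day 7 replicate 2, 9 without Scx- day 14 replicate 1 and 21 to 23 without any other library. Scx- day 14 replicates 1 and 2 held the most muscle signal of the stimulated libraries (14.3% and 16.7% of the total), and without both 7 calls were left. With the muscle covariate there were 11, and 4 when only these 2 groups were fitted.

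In the same Scx- comparison all 10 interferon-induced genes fell, with a median of -3.73. In Scx+ the member with the lowest adjusted p was Fcgr1 (-1.05 ± 0.30, adjusted p = 0.198), and Arg1 (-2.61 ± 1.08) and Ly6c2 (-1.76 ± 0.60) had the largest differences. The authors' deposited table has 11 members below 0.05 in Scx+, all lower at day 14 (4.99% of its genes), and 27 in Scx-, all lower (9.05%).

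**Figure D5:**
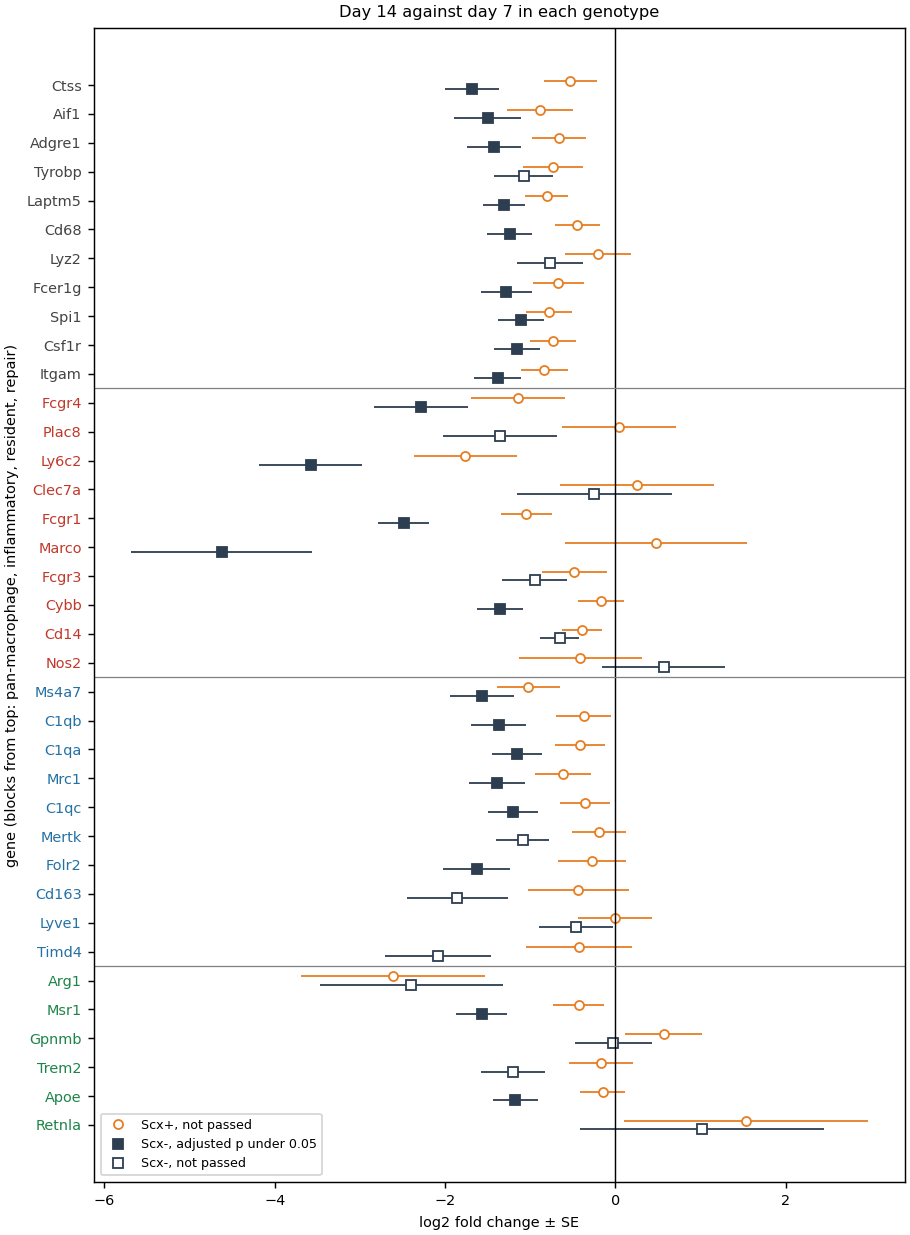
Log2 fold change of day 14 against day 7 (horizontal axis, bars are the SE of the limma fit) for each member in Scx+ (circles) and Scx- (squares), in blocks by role. The 22 filled squares all lie left of 0, from -1.11 (Spi1) to -4.62 (Marco), and no circle is filled.

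Genes around the members in the same biology were followed in 6 lists of 54 genes, of which 53 were tested. In Scx+ at day 7, 40 rose and 4 fell against the control, with a median of 1.73, where 61.3% of all tested genes were called, 33.8% higher and 27.5% lower. The lists below are small, and counts such as 3 of 5 or 4 of 8 are to be read against those shares. Among chemokines and receptors of monocyte recruitment all 7 rose, led by Ccl7 (5.54 ± 0.62) and Ccl2 (4.02 ± 0.57), both ligands of Ccr2, the receptor by which monocytes leave the blood (3.56 ± 0.54). Of growth factor genes and their receptors 3 of 5 rose, most of all Csf3r (4.23 ± 0.38), the G-CSF receptor gene of neutrophils and some monocytes, and Csf2ra (2.01 ± 0.27). Of 9 secreted signal genes 8 rose, Il1b by 6.01 ± 1.09 and the chemokine gene Ccl4 by 5.07 ± 0.61. Other surface genes rose in 9 of 12 cases, led by Cd84 (3.84 ± 0.30) and Siglec1 (2.70 ± 0.40), a sialic acid receptor gene. Of the 12 engulfment and lysosome genes 9 rose and 1 fell, with the fatty acid carrier gene Fabp5 (3.57 ± 0.41) and the lysosomal lipase gene Lipa (2.35 ± 0.24) in front. The 8 transcription factors split, with 4 higher and 3 lower: Tfec was 3.06 ± 0.57 and the sterol sensor gene Nr1h3, which fat cells also carry, -1.86 ± 0.32.

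None of the 53 passed between genotypes at day 7 or at day 14 by limma. An unadjusted p under 0.05 was held by 9 at day 7 and 5 at day 14, against 1207 and 2429 of all 16619 tested genes. At day 7 the largest differences per list were those of Csf3r (0.56) and Il34 (-0.36), Cx3cl1 (-0.92) and Ccl8 (0.81), Irf5 (0.68) and Irf8 (0.54), Cd209f (1.87) and Tlr7 (1.14), Axl (0.43) and Ctsb (0.36), and Chil3 (1.68) and Il10 (1.26). From day 7 to day 14 in Scx-, 15 of the 53 fell and none rose (background 5.25% called, 1.4% higher and 3.86% lower). They included Siglec1 (-3.04 ± 0.37, limma adjusted p = 0.000138), Il10 (-3.11 ± 0.66, adjusted p = 0.0103) and Ccl2 (-2.58 ± 0.53, adjusted p = 0.00882). No engulfment or lysosome gene was among them. In Scx+ none of the 53 passed between the days, and 18 had an unadjusted p under 0.05, against 1758 of all 16619 tested genes.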

How the data were processed

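The 19 libraries were made from total RNA of the plantaris tendon. The submitters' processing notes name FastQC, STAR, DESeq2 and the build mm10, with no version and no role for each. The authors deposited a table of a signal per gene and library, whose values are not whole numbers. Only 23.2% to 59.3% of low values lay within 0.1 of a whole multiple of a library's smallest step (chance gives 20%), so reads were not recovered and no counting interval is given. A second table deposited by the authors holds log2 fold changes and an adjusted p-value for 15951 genes, quoted as theirs.

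The deposited signal was rescaled by median-of-ratios factors (0.844 to 1.10) taken from the 13703 genes with signal in all libraries. Of 24972 genes, 4029 were at 0 throughout, and 16619 reached 10 units in 3 or more libraries and were tested. A pseudocount of 2 was added before taking log2. Using limma 3.58.1 in R 4.3.3, 1 model held all 5 groups, with trended and robust moderation of the variances, and p-values were adjusted by Benjamini-Hochberg over all tested genes. The code was tested on simulated data. The comparisons were each stimulated group against the control, day 14 against day 7 within genotype, Scx- against Scx+ at each day, and the difference of the latter. Alternatives changed scaling, filter, pseudocount, moderation, block, muscle covariate, quality weights, the groups fitted and single libraries.

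Members, roles and lists were chosen with earlier results of these data known. Values in every library were to be given for 17 chosen members and for each member that passed between genotypes or days, and folds for the 3 largest per role against the control. Related genes were named as the 2 largest per list. Further members and genes were named after their values were seen. Positions are from GENCODE M21 on GRCm38. How reads shared by paralogues were assigned, and whether strand was kept, is not given in the sources used here.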

Additional observations from a re-analysis of the deposited data

Results flagged for a closer look

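In each group of 4 libraries the highest and lowest value of every member was set against the others, and a library was listed when its gap to the nearest value, divided by the whole range, exceeded 0.829. Of 148 gene and group pairs, 6 did so, and chance gives about 5%. Adgre1 was high in Scx+ day 7 replicate 3, at 5586 against 4383 to 4577 in the other libraries of the group. Tyrobp was low in Scx+ day 7 replicate 2, at 4034 against 4661 to 4770. In Scx- day 7 replicate 4, Cd14 stood at 2429 against 1334 to 1428 and Clec7a at 1951 against 607 to 832. Retnla stood at 647 in Scx- day 14 replicate 3, where the other libraries held 0 to 27.1. Gpnmb stood at 17760 in Scx+ day 14 replicate 4, against 4344 to 6549.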

How the results depend on the processing

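Against the control the counts of called members stayed within 1.5 times the reported ones in every alternative run: 31 to 33 with 1 library left out and 24 to 33 otherwise in Scx+ at day 7, 27 to 30 and 27 to 33 in Scx+ at day 14, 33 to 35 and 33 to 34 in Scx- at day 7, and 22 to 27 and 23 to 29 in Scx- at day 14. The fall from day 7 to day 14 in Scx- (22 members) depended on the processing: 11 with the muscle covariate, 4 when only these groups were fitted, 7 without Scx- day 14 replicates 1 and 2, and 8 to 23 with 1 library left out. In Scx+ the count of 0 between days became 4 with sample quality weights and stayed 0 otherwise. At day 7 the genotype count of 1 became 0 with upper quartile scaling, on the deposited scale, with no filter and with the muscle covariate, 2 with a pseudocount of 8 or the groups fitted alone, 5 with quality weights, and 0 to 2 with 1 library left out. No member passed between genotypes at day 14, or in the change of the genotype difference, under any alternative run. The one result that changed direction was Retnla between days in Scx-, which did not pass: 1.02 became -0.46 without Scx- day 14 replicate 3, and ran up to 2.33 without another single library. The causes of these changes were not tested, other than that fewer libraries entered the fits that left some out. Scaling by library totals moved the median log2 fold change of all genes from 0.18 to 0.83 in Scx+ at day 7 against the control, and the members' median from 2.06 to 2.73.

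Over 36 pairs of libraries with the same replicate number, correlations of deviations from the group mean ran from -0.429 to 0.351, and 6 exceeded 0.1. Pairs with different numbers were not set beside them, so these values cannot decide whether the numbers pair the libraries. With the replicate block the counts were 33, 30, 34 and 26 against the control (Scx+ day 7, Scx+ day 14, Scx- day 7, Scx- day 14), 0 and 20 between days in Scx+ and Scx-, 1 and 0 between genotypes at day 7 and day 14, and 0 for the change of the genotype difference.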

Other observations

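Osteoclasts form by fusion of cells of the same lineage. In Scx+ at day 7, 5 of 6 osteoclast genes were higher than in the control (limma, adjusted p under 0.05, against 33.8% of all tested genes). Atp6v0d2, a proton pump subunit gene, rose by 5.48 ± 0.81, the fusion genes Ocstamp and Dcstamp by 5.0 ± 0.84 and 3.94 ± 1.03, and Acp5, the tartrate-resistant acid phosphatase gene, by 1.78 ± 0.36. Acp5 read 6093, 3998, 2617 and 5244 in Scx+ and 1603, 928, 1017 and 643 in Scx- at day 7. The log2 difference of Scx- from Scx+ was -2.10 ± 0.33 (limma adjusted p = 0.0051), with no overlap between the libraries. Oscar, a co-receptor gene, differed by -2.64 ± 0.66 (adjusted p = 0.0833), Dcstamp by -2.49 ± 0.95 (adjusted p = 0.46) and Ocstamp by -2.37 ± 0.78 (adjusted p = 0.292), none past the threshold. Of 7 globin and other red cell genes, 5 were lower in Scx- at day 7 (limma, adjusted p under 0.05), among them Alas2 with a difference of -7.32 ± 0.88 (adjusted p = 0.000817). In that comparison 0.77% of all tested genes were called in either direction.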
